A study of Homo sapiens with 18 samples.

Results

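Podocytes grown on a fractal surface were compared between 2 inflammatory conditions, exposure to THP-1-derived macrophages and exposure to the cytokines TNF-α and IL-6. The comparison used the 3 libraries labelled fractal THP-1 and the 3 labelled fractal cytokines, 6 of 18 libraries in the series, and members were taken by label alone. The cells were PODO/TERT256, human podocytes made immortal by telomerase, and grew on 3D hemispheres with a smooth or a fractal surface. The other 4 groups, also of 3 libraries each, were the untreated control on either surface and both treatments on the smooth surface. The labels give no dose, no duration, no number of macrophages and no step that parted macrophages from podocytes before RNA was extracted. Nor do they tie libraries to separate cultures, so p-values measure only the spread between libraries, which may be technical.

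Podocytes are the epithelial cells that wrap the capillaries of the glomerulus and form, with the basement membrane, the kidney's filter. TNF acts mainly through the transcription factor NF-kB, and IL-6 through STAT3, and both pathways end in chemokines, adhesion molecules and acute phase proteins. Macrophages give off a broader mixture, which can include TNF, IL-6, IL-1β and interferons, and in co-culture they also bring their own RNA. THP-1 is a human monocytic leukaemia line that is commonly turned into macrophage-like cells.

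Against libraries with cytokines, libraries with macrophages were higher in 26 of 40 NF-kB targets, 14 of 24 chemokines and leukocyte growth factors, 14 of 21 MHC class I genes and 15 of 34 interferon response genes, and in the laminin chains LAMA3 and LAMB3 and the BMP antagonists NOG and CHRD. They were lower in 51 of 52 mitotic genes, 28 of 36 TGF-β targets, 24 of 35 genes of the unfolded protein and amino acid stress response, 48 of 76 ribosomal protein genes and the fibrinogen chains. Some lists share genes, above all those of NF-kB targets and chemokines. With edgeR's quasi-likelihood F-test and p-values adjusted by Benjamini and Hochberg's method, 5795 of 16129 genes tested passed an adjusted p of 0.05, which is 35.9%, with 2488 higher with macrophages (15.4%) and 3307 lower (20.5%). The balance of the 2 directions moved with the settings: upper-quartile scaling gave 2893 higher and 2735 lower, and a fit to the 6 libraries alone 1664 and 1652. The median log2 fold change over all genes tested was -0.021. Fold changes are given throughout as log2 of fractal THP-1 over fractal cytokines with their standard error, and levels as CPM, counts scaled to the library total after TMM normalization, in libraries 1, 2 and 3 in that order. Where 2 groups shared no range of values, they are said not to overlap.

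**Figure D1:**
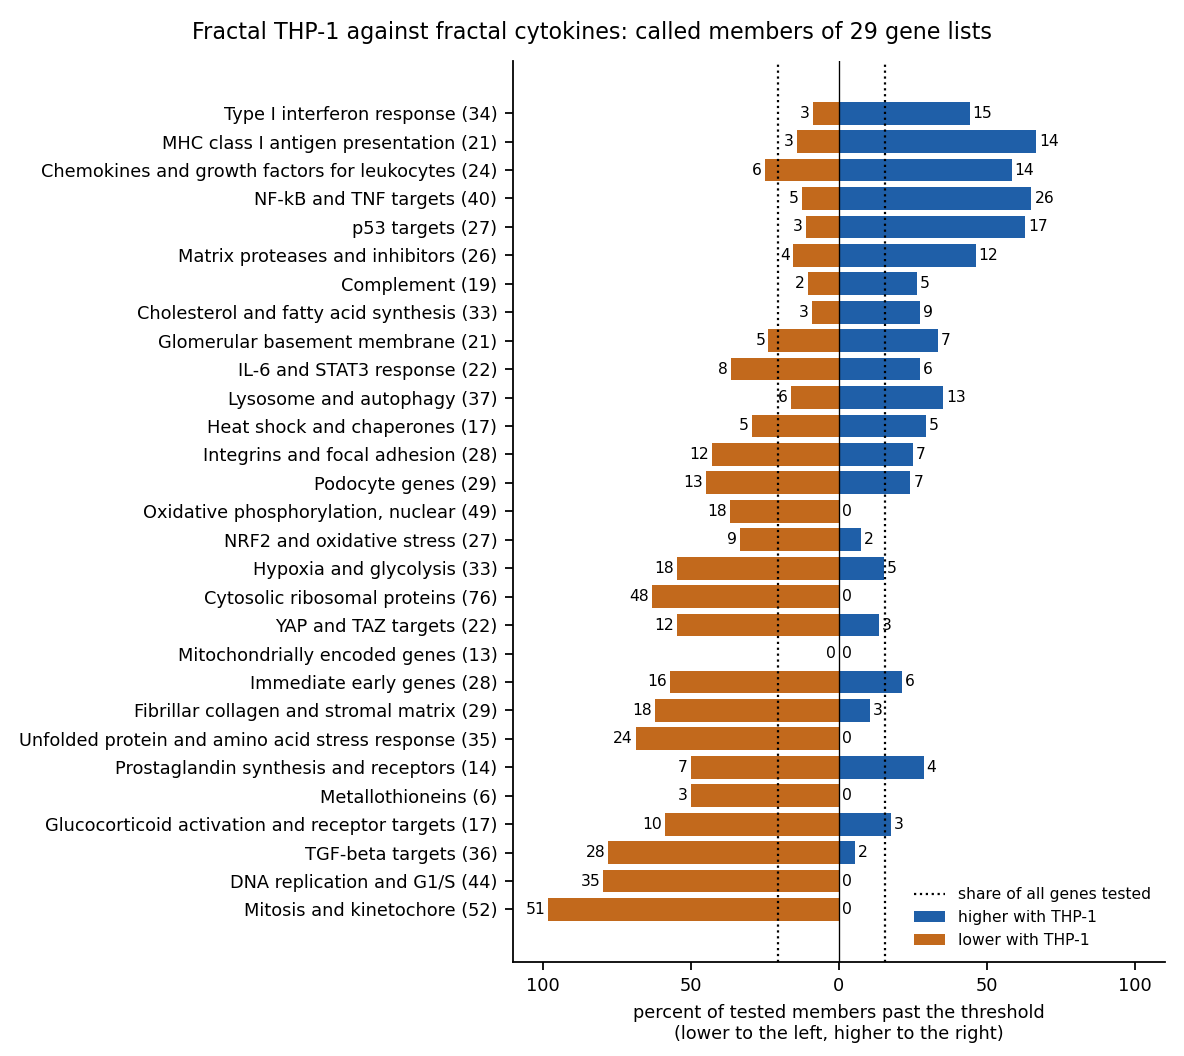
Share of the tested members of each of 29 gene lists that were higher (right, blue) or lower (left, orange) in fractal THP-1 than in fractal cytokines, in percent, with the number of genes at the end of each bar, the number tested in brackets and lists ordered by median fold change. Dotted lines mark the share of all genes tested, 15.4% higher and 20.5% lower. Mitotic genes form the longest bar to the left (51 of 52), and MHC class I, NF-kB and p53 targets have the longest bars to the right.

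The fractal THP-1 library of replicate 3 stood apart from its companions. It held counts for 17934 genes, against 22609 and 22907 in replicates 1 and 2 and 21039 to 21709 in the cytokine libraries. It had the fewest counts of all 18 libraries (11488204, where the others had 13990684 to 21264180). Thinned to the same total, its companions still held 21772 and 22048 genes. Mitochondrially encoded genes took 0.847% of its counts, against 4.39% and 4.47% in the companions and 4.25% to 4.45% in the cytokine libraries. Among 10649 genes whose fractal THP-1 mean reached 5 CPM, replicate 3 lay over 4-fold below both companions in 35 genes and over 4-fold above both in 1. Counts of list members in the comparison are therefore also given without this library. Without it 6146 of 16661 genes passed (36.9%; 2506 higher, 3640 lower). Of the 5795 genes called with it, 4981 were called in the same direction without it, and 0 changed direction. When the spread was estimated from the 6 libraries of the comparison alone, 3316 of 14750 genes passed (22.5%), and 5747 when replicate 3 was also left out, a set of libraries chosen after the data were seen.

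**Figure D2:**
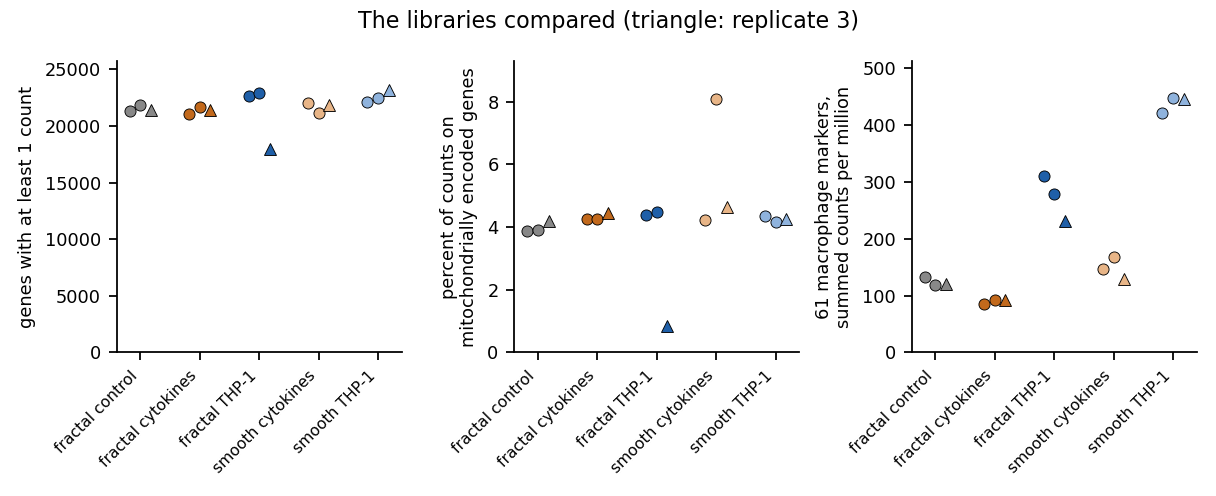
Genes with at least 1 count, percent of counts on mitochondrially encoded genes, and summed CPM of 61 macrophage markers (IL1B included), by library in 5 groups of 3, with replicate 3 as a triangle. The fractal THP-1 triangle lies lowest in the first 2 panels (17934 genes, 0.847%), and in the third panel the fractal THP-1 libraries (231 to 311 CPM) lie above the fractal cytokine libraries (85.6 to 93.0 CPM).

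Defining podocyte transcripts were near the limit of detection. NPHS1, which encodes the slit diaphragm protein nephrin, had no count in any of the 6 libraries, and WT1, which podocytes need for their identity, was detected in 1 of them, at 0.117 CPM. Of 8 podocyte markers, 4 had counts enough to be tested. SYNPO, which encodes the actin-associated protein synaptopodin, was at 67.0, 74.7 and 54.9 CPM with macrophages and 116, 122 and 104 CPM with cytokines. It was lower in all 3 macrophage libraries (-0.80 ± 0.11, edgeR adjusted p = 1.4e-06), as was PODXL, the anionic surface protein podocalyxin (-1.43 ± 0.24, adjusted p = 3.2e-05), at 3.35, 2.36 and 1.94 against 7.92, 5.71 and 7.38 CPM.

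Macrophage transcripts were present in the macrophage libraries at low level. ITGB2, the β2 integrin chain of leukocytes, was at 10.8, 7.03 and 8.01 CPM with macrophages and had no count in the cytokine libraries, which makes it at least 135-fold higher when the cytokine group is set to 3 counts in all. TYROBP, a signalling adaptor of myeloid cells, was at 0.822, 0.887 and 1.26 CPM against no count (at least 15.5-fold), and SPI1, the myeloid transcription factor PU.1, at 0.528, 0.591 and 0.169 CPM against no count (at least 6.73-fold). LAPTM5, a lysosomal protein of blood cells, was at 5.46, 7.27 and 1.6 CPM against 0.333, 0.0614 and 0 CPM. CD14, a receptor for bacterial lipopolysaccharide, was at 6.04, 4.67 and 9.61 CPM against 0.732, 1.41 and 1.34 CPM (2.52 ± 0.33, edgeR adjusted p = 1.4e-06). PTPRC, the leukocyte surface protein CD45, was at 1.17, 0.532 and 0.253 CPM against 0.266, 0.307 and 0 CPM, short of the threshold (edgeR adjusted p = 0.11), as was CORO1A, a leukocyte actin-binding protein (adjusted p = 0.39). CD68 and LYZ, named here after their values were seen, had 1 count each over the 3 macrophage libraries.

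Across 64 monocyte and macrophage markers, 49 had a count in fractal THP-1 and 33 in fractal cytokines, and 12 had none in any of the 6 libraries. Of the 32 that could be tested, 19 were higher with macrophages and 3 lower, among them ARHGDIB and CD44, the same numbers with and without replicate 3. SRGN and CD44, which many cells make and which were at 444.5 and 952 CPM in the untreated fractal controls, held most of the sum. Over all 64 markers it was 1330.3, 1308 and 1085 CPM of unscaled totals with macrophages and 1443, 1360 and 1487 CPM with cytokines, a difference of -188.8 CPM. Without these 2 genes and APOE, also made by other cells, the sum turned round, to 310.9, 278 and 231 CPM with macrophages and 85.6, 92.7 and 93.0 CPM with cytokines, a difference of 182.8 CPM. Neither difference can be called, since 3 libraries against 3 allow no p under 0.1 in an exact two-sided permutation test, and both had that p. In the untreated fractal controls the 61 markers summed to 124 ± 7.7 CPM (SD, n = 3), and in smooth THP-1 to 439 ± 16 CPM. IL1B, 1 of the 61 and also on the NF-kB list, took a large part of this sum. After TMM scaling its mean was 135.5 CPM with macrophages and 22.3 CPM with cytokines, where the 61 markers summed to 270.0 and 92.6 CPM. Untreated fractal controls held IL1B at 26.3 CPM, so the sum does not count RNA of macrophages alone. How far RNA of macrophages adds to any gene below was not tested. In bulk samples such as these, fewer cells of a type and less RNA per cell cannot be told apart.

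Markers of other kidney cells moved too. None of 10 tested markers of mesangial and smooth muscle cells was higher and 7 were lower, with and without replicate 3, among them PDGFRB, a receptor for platelet-derived growth factor, at 15.4, 12.2 and 11.6 CPM with macrophages against 33.6, 37.5 and 30.7 CPM. Their sum was 174 to 218 CPM with macrophages and 476 to 511 CPM with cytokines, while ITGA8 had no count. Of 10 endothelial markers 5 were higher (CDH5, EGFL7, PECAM1, PLVAP and TIE1) and 1, KDR, lower (4 and 1 without replicate 3, where TIE1 lost its call). PECAM1, an adhesion molecule of endothelium and leukocytes, was at 9.74, 12 and 9.78 against 1.6, 2.15 and 3.05 CPM, while EMCN had no count and VWF stayed under 1 CPM. The endothelial sum was 90.3 to 93.8 CPM with macrophages and 63.3 to 66.1 CPM with cytokines. Of 11 tubule and parietal markers 5 were higher (CLDN1, CLDN16, KRT8, KRT19 and PAX8) and 3 lower (CD24, KRT7 and KRT18), or 4 and 3 without replicate 3. They summed to 1502 to 1765 CPM with macrophages and 1039 to 1097 CPM with cytokines, and UMOD had no count.

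Promoters of the genes concerned were read beside their transcripts. Windows of 250 bases before the RefSeq start of each gene (GRCh38.p14, 27305 genes with an entry) were searched on both strands for 3 short motifs. The NF-kB motif was GGG followed after any 2 bases by TTTCC, the STAT3 motif TTCNNNGAA, where N is any base, and the interferon response motif TTTC followed after any 2 bases by TTTC. The letters stood in 2.12%, 8.09% and 3.71% of all windows. The 5 windows shown belong to genes on which the results below turn: 2 chemokine or cytokine genes that were higher with macrophages (CXCL6, IL6), a chemokine gene with the same NF-kB letters that was lower (CXCL3), a fibrinogen gene (FGA) and an interferon-induced sensor of viral RNA (IFIH1). All 5 were shown because they hold a match. Windows of CXCL8, PTGS2 and ICAM1 held no match to the NF-kB letters searched, and those of FGB, FGG, SOCS1 and SOCS3 none to the STAT3 letters. Only these exact letters were searched, so a window without a match may still hold a site spelled otherwise. Each window shown runs 5′ to 3′ on the gene's own strand, with motif matches in capitals.
CXCL6: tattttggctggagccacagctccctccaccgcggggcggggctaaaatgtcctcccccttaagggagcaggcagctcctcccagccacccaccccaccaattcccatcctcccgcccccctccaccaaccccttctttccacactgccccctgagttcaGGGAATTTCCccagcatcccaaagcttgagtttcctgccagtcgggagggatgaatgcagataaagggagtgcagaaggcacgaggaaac
IL6: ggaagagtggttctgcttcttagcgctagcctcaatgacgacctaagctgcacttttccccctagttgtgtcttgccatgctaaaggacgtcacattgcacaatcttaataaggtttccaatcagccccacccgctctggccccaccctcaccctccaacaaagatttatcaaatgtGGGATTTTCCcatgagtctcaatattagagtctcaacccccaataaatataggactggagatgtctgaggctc
CXCL3: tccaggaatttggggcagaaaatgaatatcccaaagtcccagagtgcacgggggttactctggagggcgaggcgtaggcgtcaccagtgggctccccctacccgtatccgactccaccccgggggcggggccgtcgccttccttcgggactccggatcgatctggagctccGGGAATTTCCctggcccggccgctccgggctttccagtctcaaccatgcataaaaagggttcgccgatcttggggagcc
FGA: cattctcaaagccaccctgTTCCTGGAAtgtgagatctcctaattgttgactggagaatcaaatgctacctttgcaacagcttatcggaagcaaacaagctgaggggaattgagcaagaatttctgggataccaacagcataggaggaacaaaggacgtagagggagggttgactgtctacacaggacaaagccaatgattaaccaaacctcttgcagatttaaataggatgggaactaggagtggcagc
IFIH1: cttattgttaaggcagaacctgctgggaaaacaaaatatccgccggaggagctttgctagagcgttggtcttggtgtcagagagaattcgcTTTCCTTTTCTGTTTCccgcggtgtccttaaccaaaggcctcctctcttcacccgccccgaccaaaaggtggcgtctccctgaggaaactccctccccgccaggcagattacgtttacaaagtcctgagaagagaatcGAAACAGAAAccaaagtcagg

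The windows lie at chr4:73836428-73836677 (plus strand), chr7:22726950-22727199 (plus), chr4:74038690-74038939 (minus), chr4:154590743-154590992 (minus) and chr2:162318685-162318934 (minus). The NF-kB match ends 80 bases before the start in CXCL6, 63 in IL6 and 69 in CXCL3, and CXCL6 and CXCL3 hold the same 10 letters. IFIH1 holds 3 interferon matches, of which the first 2 share 4 bases and are printed as 1 run, and the last reads on the other strand. Among NF-kB list genes with an entry, the motif stood in 8 of 20 that were higher with macrophages (40.0%), 3 of 4 that were lower and 3 of 8 that did not pass. Among interferon list genes it stood in 10 of 13 that were higher, 3 of 3 that were lower and 7 of 13 that did not pass. The STAT3 letters stood in 1 of 3 IL-6 and STAT3 list genes that were higher, 2 of 8 that were lower and 0 of 7 that did not pass. Genes of either direction thus carried these letters. A match describes a sequence and is no evidence of binding.

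NF-kB targets and chemokines were mostly higher with macrophages than with TNF-α and IL-6. Of 40 NF-kB and TNF targets, all tested, 26 were higher and 5 lower (26 and 6 without replicate 3, 22 and 4 in the fit to 6 libraries), with a median of 0.43. Among 24 chemokines and leukocyte growth factors tested, 14 were higher and 6 lower (14 and 5 without replicate 3), with a median of 0.54. Many genes, such as CXCL6, IL6, CXCL8 and CCL2, are on both lists, so the counts are not independent. The sum of 61 macrophage markers, which includes IL1B of the NF-kB list, was higher in the same libraries, and its part in these counts was not tested.

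CXCL6, a chemokine for neutrophils at chr4:73836497-73849064, was at 478, 486 and 596 CPM with macrophages and 99.5, 109 and 141 CPM with cytokines. The groups did not overlap, and the difference was 2.16 ± 0.13 (edgeR adjusted p = 1.4e-11). Controls on the same surface were at 39.6, 44.9 and 42.1 CPM, below both. IL6, the gene of interleukin 6 itself, was at 164, 155 and 135 CPM against 54.5, 59.0 and 64.9 CPM, higher in all 3 macrophage libraries (1.35 ± 0.09, adjusted p = 9.5e-12). CXCL8, the main human chemokine for neutrophils, was at 1338, 1230.1 and 1196 CPM against 649.6, 606 and 760.1 CPM (0.90 ± 0.08, adjusted p = 2.5e-09). The cytokine libraries did not pass the test against control for CXCL8 (661, 720.1 and 725 CPM), where the fold change over control was -0.06 ± 0.08 with cytokines and 0.84 ± 0.08 with macrophages.

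ICAM1 and VCAM1 encode adhesion molecules that hold leukocytes. ICAM1 was at 58.5, 63.0 and 59.8 CPM with macrophages, 25.0, 21.9 and 23.7 CPM with cytokines and 23.2, 22.5 and 22.2 CPM in controls, so that the cytokine and control libraries shared a range and the macrophage libraries lay above both (1.36 ± 0.09, edgeR adjusted p = 1.3e-11). VCAM1 was at 474, 453 and 556 against 393, 333 and 407 CPM (0.39 ± 0.09, adjusted p = 0.0022), and both groups were below the controls, at 644, 643 and 647 CPM. CCL2, a chemokine for monocytes, was at 99.9, 97.0 and 41.9 CPM against 14.6, 15.7 and 23.4 CPM, with replicate 3 under the level of its companions and still above all cytokine libraries (2.16 ± 0.31, or 2.45 without it). IL1B, counted here as a macrophage marker, was at 154, 141 and 112 CPM against 23.0, 18.2 and 25.6 CPM (2.61 ± 0.17, adjusted p = 4.5e-10). Its level in untreated podocytes was 28.2, 26.2 and 24.6 CPM.

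The 5 NF-kB list members that were lower with macrophages were PTGS2, CXCL2, CXCL3, CXCL5 and IER3. PTGS2 encodes cyclooxygenase 2, the inducible enzyme of prostaglandin synthesis, and was at 64.3, 67.7 and 51.2 CPM with macrophages and 336, 343 and 359.9 CPM with cytokines (-2.50 ± 0.12, edgeR adjusted p = 6.6e-14). Controls, at 67.8, 72.0 and 67.6 CPM, shared their range with the macrophage libraries, and the cytokine libraries lay above both. CXCL3, a further neutrophil chemokine, was at 5.34, 5.62 and 3.12 against 13.4, 13.5 and 11.7 CPM (-1.43 ± 0.19). CXCL6, CXCL8 and CXCL3 lie on the same arm of chromosome 4 (chr4:73740506-73743716 for CXCL8, chr4:74036589-74038807 for CXCL3) and did not move as a block. IER3, an early response gene, was lower by a smaller amount (-0.59 ± 0.11).

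**Figure D3:**
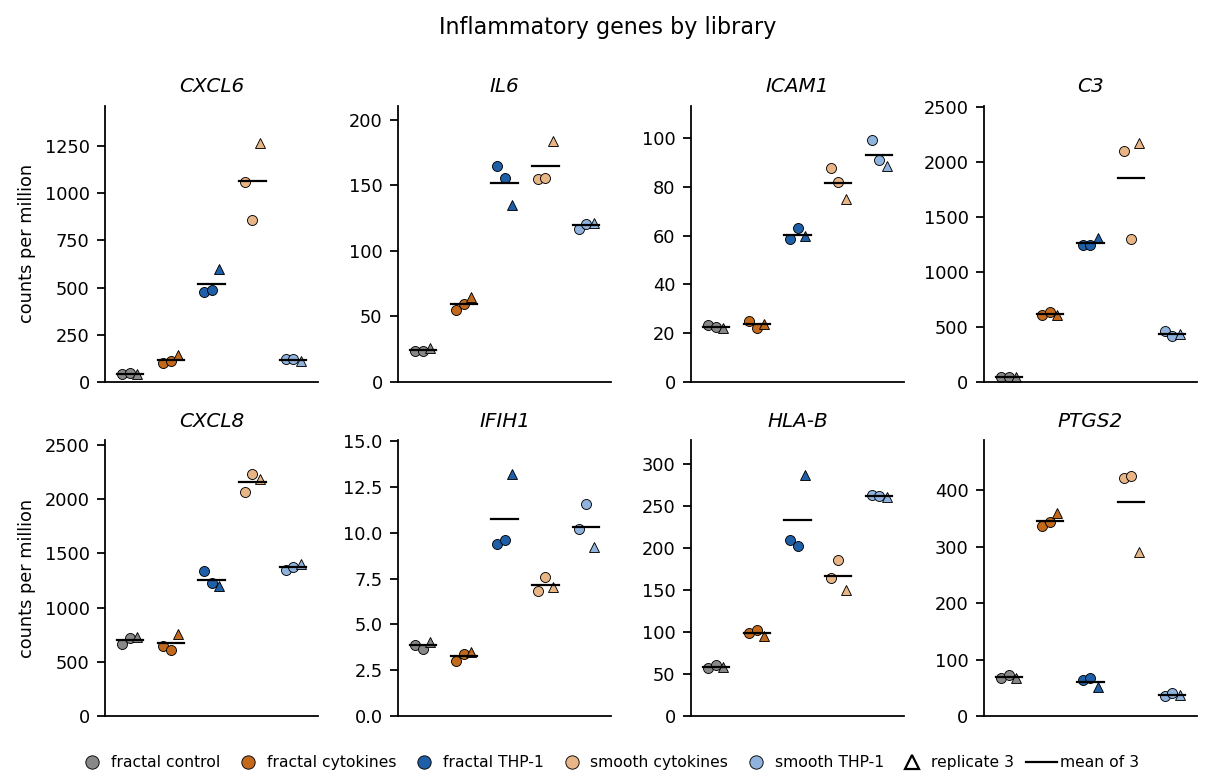
Levels in CPM of 8 inflammatory genes in each library of 5 groups, with replicate 3 as a triangle and a line at the mean of 3. In CXCL6, IL6, ICAM1, C3, CXCL8, IFIH1 and HLA-B the 3 fractal THP-1 libraries lie above the 3 fractal cytokine libraries, and in PTGS2 they lie below.

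Genes of the IL-6 and STAT3 response were split. Of 22 tested, 6 were higher with macrophages and 8 lower (5 and 8 without replicate 3), with a median of 0.06, near that of all genes. Against fractal controls, 17 of the 22 were higher with cytokines and 0 lower (13% and 12.9% of all genes), and 12 were higher and 5 lower with macrophages (25% and 25.5% of all genes). The 2 comparisons share their controls. SOCS1, an inhibitor of cytokine receptors, was at 14.2, 13.8 and 19.5 CPM with macrophages against 3.72, 4.24 and 3.5 CPM (2.04 ± 0.21, edgeR adjusted p = 3.1e-08), and SOCS3, a STAT3-induced inhibitor of the IL-6 receptor, went the other way, at 18.6, 16.4 and 20.1 against 27.0, 30.8 and 24.9 CPM (-0.59 ± 0.12, adjusted p = 0.00032). SAA1, an acute phase protein, was at 21.0, 24.3 and 42.6 CPM against 8.51, 11.6 and 10.1 CPM and under 1 CPM in the fractal controls (1.53 ± 0.22, and 1.17 without replicate 3). Its near-identical neighbour SAA2 may share its reads.

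The 3 fibrinogen genes were at or near 0 in the macrophage libraries. They encode the chains of the clotting protein fibrinogen, lie side by side on chromosome 4 (chr4:154562956-154571086, chr4:154583126-154590766 and chr4:154604134-154612967) and are textbook IL-6 targets in liver. FGB was at 0.587, 0.532 and 1.43 CPM with macrophages and 204, 163 and 169.6 CPM with cytokines, 210.3-fold lower by the means. FGA was at 0.176, 0 and 0.0843 against 12.3, 16.2 and 12.8 CPM, 159-fold lower, and FGG had no count with macrophages and a mean of 9.83 ± 0.32 (SD, n = 3) CPM with cytokines, at least 150.2-fold lower when the macrophage group is set to 3 counts in all. In untreated cells the levels were 306, 309 and 304 CPM for FGB, 4.53, 5.4 and 5.41 for FGA and 8.03, 8.83 and 8.85 for FGG. FGB and FGG did not pass the test of cytokines against control (-0.78 ± 0.31 and 0.20 ± 0.47), while FGA did (1.43 ± 0.32). A2M, the acute phase protease inhibitor α2-macroglobulin, had the reverse pattern: 5.34, 3.67 and 2.44 CPM with macrophages and no count with cytokines or in controls, at least 59.8-fold higher. An antisense gene overlaps A2M and could share its reads.

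Many interferon response genes did not pass, and most MHC class I genes were higher with macrophages. Of 34 type I interferon response genes tested, 15 were higher and 3 lower (16 and 2 without replicate 3, 9 and 1 in the fit to 6 libraries), with a median of 0.66. Of 21 MHC class I genes 14 were higher and 3 lower, with and without replicate 3, and the median was 0.62, or 0.47 without that library. IFIH1, whose promoter window is printed above, was at 9.39, 9.64 and 13.2 CPM with macrophages and 2.99, 3.38 and 3.5 CPM with cytokines, with no overlap (1.70 ± 0.19, edgeR adjusted p = 1.2e-07). For IFIH1 the cytokine libraries did not pass the test against control (-0.23 ± 0.20, adjusted p = 0.44). PARP14, an interferon-induced ADP-ribosyltransferase, was at 105, 103 and 105 against 54.7, 53.6 and 64.1 CPM.

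HLA-B, a classical MHC class I heavy chain, was at 210.0, 202 and 287 CPM with macrophages and 98.5, 102 and 95.5 CPM with cytokines. All macrophage libraries lay above, replicate 3 farthest (1.24 ± 0.10, or 1.06 without it), and the reads of HLA genes can be shared among near-identical relatives. HLA-E, a ligand of natural killer receptors, was higher by 0.78 ± 0.10 (0.59 without replicate 3). B2M, the light chain common to all class I molecules, was at 934, 902 and 1008 against 562, 619 and 619.6 CPM (0.66 ± 0.08, edgeR adjusted p = 2e-07). The 3 lower members were CALR, CANX and PDIA3, general chaperones of the endoplasmic reticulum that also help load class I molecules (-0.42 ± 0.09, -0.62 ± 0.07 and -0.54 ± 0.08). The 3 lower interferon genes were IFIT5 (-0.49 ± 0.12), IFI44L at 3.17, 2.96 and 1.43 against 5.12, 8.54 and 4.64 CPM, and EPSTI1, whose call was lost without replicate 3 (-0.50).

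Complement genes were called about as often as all genes (35.9%), with 5 higher and 2 lower of 19 tested (8 and 2 without replicate 3), with a median of 0.23. C3, the central component, was at 1245, 1242 and 1307 CPM with macrophages, 609, 638 and 606 CPM with cytokines and 41.8, 40.1 and 40.1 CPM in controls. Both treatments stood far above control, and macrophages above cytokines by 1.03 ± 0.12 (edgeR adjusted p = 4.1e-07). CD55, which breaks up C3 convertases on the cell surface, was at 161, 146 and 139 CPM against 68.0, 72.2 and 73.9 CPM (1.06 ± 0.10), and CD59, which blocks the membrane attack complex, was lower, at 291, 291 and 302 against 466, 438 and 455 CPM (-0.62 ± 0.07). CFB, a C3 convertase subunit, and CLU, the chaperone clusterin, were also higher, and the other lower one was C3AR1, a receptor for a C3 fragment, at 0.352, 0.236 and 0.169 against 0.599, 1.23 and 2.1 CPM.

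Cell division genes had the most uniform difference. Of 52 mitosis and kinetochore genes, 51 were lower with macrophages and 0 higher, with and without replicate 3, and the median was -1.66. Of 44 DNA replication and G1/S genes tested, 35 were lower and 0 higher (38 and 0 without replicate 3), with a median of -0.95. TOP2A, the topoisomerase that untangles replicated chromosomes, was at 52.5, 50.6 and 49.5 CPM with macrophages, 203, 158 and 168 CPM with cytokines and 346, 346 and 345 CPM in controls. The 3 groups did not overlap, and the macrophage libraries were lowest (-1.79 ± 0.09, edgeR adjusted p = 1.2e-13). TPX2, a spindle assembly factor, was at 24.9, 26.4 and 28.5 against 98.2, 93.1 and 97.0 CPM (-1.86 ± 0.10), and ASPM, a spindle pole protein, at 19.2, 17.9 and 16.1 against 58.3, 53.2 and 65.9 CPM (-1.73 ± 0.10). Against fractal controls 51 mitotic genes were lower with cytokines and 52 with macrophages, and 31 and 41 of the replication genes, with 0 higher in either.

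RRM2, the subunit of ribonucleotide reductase that is made in S phase, was at 7.1, 8.69 and 4.97 CPM with macrophages against 33.1, 34.9 and 35.4 CPM (-2.29 ± 0.16, edgeR adjusted p = 1.9e-11). RRM2B, the p53-induced form of the same subunit, moved the other way, at 97.8, 92.1 and 92.6 CPM against 44.6, 44.2 and 48.0 CPM (1.05 ± 0.08, adjusted p = 1.4e-10). CDKN1A, the p53-induced cell cycle inhibitor p21, was at 241, 238 and 242 against 138, 166 and 139 CPM, with every macrophage library above every cytokine library (0.70 ± 0.08). Of 27 p53 targets 17 were higher and 3 lower (15 and 3 without replicate 3), with a median of 0.37. BTG2, an antiproliferative p53 target, was at 15.4, 12.9 and 16.9 against 7.72, 5.04 and 4.9 CPM (1.35 ± 0.17), while SESN2, which also answers to amino acid stress, was lower (-1.44 ± 0.19), as were TP53I3 and TRIAP1. MCM6 and TK1, a helicase subunit and a nucleotide salvage enzyme of S phase, were lower by similar amounts (-1.25 ± 0.11 and -1.79 ± 0.14).

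Most TGF-β targets were lower with macrophages. Of 36, all tested, 28 were lower and 2 higher, with and without replicate 3 (24 lower in the fit to 6 libraries), and the median was -0.88. TGFBI, a matrix protein named for its induction by TGF-β, was at 281, 276 and 249 CPM with macrophages and 1875, 1834 and 1742 CPM with cytokines. The macrophage libraries were also below the controls, at 1371, 1349 and 1371 CPM (-2.76 ± 0.08 against cytokines, edgeR adjusted p = 2.6e-18). ID1, a direct target of BMP and TGF-β receptors, was at 17.4, 20.8 and 25.9 CPM with macrophages, 122, 120.2 and 119.6 CPM with cytokines and 45.8, 45.8 and 47.1 CPM in controls. The cytokine libraries were thus above control and the macrophage libraries below. LTBP4, a binding protein of latent TGF-β, was 1 of 2 higher members (0.83 ± 0.16, and 0.50 without replicate 3). FN1, fibronectin, was the other, at 185871, 174857 and 139875 CPM against 122277, 120693 and 121471 CPM, and is the most abundant transcript named here, at 14.4% to 18.5% of all counts in the macrophage libraries.

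The ligand BMP4 and NOG (noggin) and CHRD (chordin), which are secreted antagonists of BMPs, were among the largest increases. BMP4 was at 12.4, 12.9 and 9.02 CPM with macrophages against 0.333, 0.43 and 0.509 CPM, 27.0-fold higher by the means. NOG was at 36.2, 29.1 and 56.6 CPM against 1.86, 2.27 and 1.27 CPM (22.5-fold), with replicate 3 highest. CHRD was at 135, 137 and 224 CPM against 7.58, 6.94 and 9.23 CPM and 0.746, 1.32 and 1.63 CPM in controls (20.9-fold, or 4.38 ± 0.22 and 4.10 without replicate 3). The largest changes were ranked only among genes without overlap between macrophage and cytokine libraries, so the separation of these 3 follows from that choice. Against control, BMP4 was lower with cytokines (-2.31 ± 0.40, edgeR adjusted p = 8.7e-05) and higher with macrophages (2.42 ± 0.28, adjusted p = 9.2e-08). TGFB2, a TGF-β ligand, was lower with macrophages than with cytokines (-1.69 ± 0.14).

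Stromal matrix genes were also mostly lower. Some of them, such as LOX, FN1 and COL3A1, are on the list of TGF-β targets too, so the lists are not independent. Of 29 fibrillar collagen and stromal matrix genes tested, 18 were lower and 3 higher, with and without replicate 3, with a median of -0.58. POSTN, the matricellular protein periostin, was at 85.2, 71.7 and 59.6 CPM with macrophages and 1193, 1239.7 and 1264 CPM with cytokines, 17.1-fold lower by the means, and at 1002, 997 and 972 CPM in controls. COL6A3, a chain of the beaded-filament collagen VI, was at 112, 103 and 144 against 759, 696 and 693 CPM (-2.58 ± 0.10), while its partner chain COL6A2 was slightly higher (0.44 ± 0.09, and 0.29 without replicate 3). LOX, the enzyme that crosslinks collagen, was at 324, 321 and 253 against 652, 627 and 615 CPM (-1.08 ± 0.09). MFAP5, a microfibril protein, was higher (0.50 ± 0.17). COL3A1, named after its values were seen, had no count in the 3 macrophage libraries and 95 counts over the 3 cytokine libraries.

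Basement membrane genes were divided by chain. Of 21, 7 were higher and 5 lower (6 and 7 without replicate 3), with a median of 0.11. LAMA3 and LAMB3 encode chains of epithelial laminins and were higher with macrophages. LAMA3 was at 245, 243 and 264 CPM against 20.8, 18.2 and 16.5 CPM, 13.6-fold higher by the means (3.76 ± 0.11, edgeR adjusted p = 6.1e-18). LAMB3 was at 92.1, 86.4 and 133 against 58.7, 54.4 and 49.8 CPM (0.93 ± 0.11), and neither gene overlapped between the groups. The collagen IV chains common to most basement membranes were lower: COL4A1 was at 753, 703 and 1110.3 CPM against 2923, 2658 and 2678 CPM (-1.69 ± 0.12) and COL4A2 at 1519, 1487 and 2015 against 2778, 2705 and 2435 CPM (-0.66 ± 0.09). In both, replicate 3 was the highest of the macrophage libraries. NID1, the linker nidogen, was also lower (-0.76 ± 0.09), and the other 2 lower members were COL4A6 and LAMC1.

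Urokinase and its receptor were higher with macrophages, and the protease inhibitor gene SERPINE2 was lower. Of 26 proteases and inhibitors tested, 12 were higher and 4 lower (14 and 4 without replicate 3), with a median of 0.33. PLAU, the protease urokinase, was at 421, 398 and 621 CPM with macrophages and 62.9, 60.0 and 58.7 CPM with cytokines, 7.93-fold higher by the means, with replicate 3 highest (2.99 ± 0.12, and 2.75 without it). PLAUR, its receptor, was at 101, 100.1 and 141 against 66.9, 67.3 and 66.6 CPM (0.77 ± 0.10). SERPINE2, the protease inhibitor nexin 1, went the other way, at 101, 104 and 103 CPM against 441, 438 and 420.5 CPM (-2.08 ± 0.09). ADAMTS5, an aggrecan-cleaving protease, was at 554, 549 and 421 against 154, 150.0 and 167 CPM (1.70 ± 0.14), whereas ADAMTS1, a relative, was lower (-0.89 ± 0.09), as was the collagenase MMP13.

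**Figure D4:**
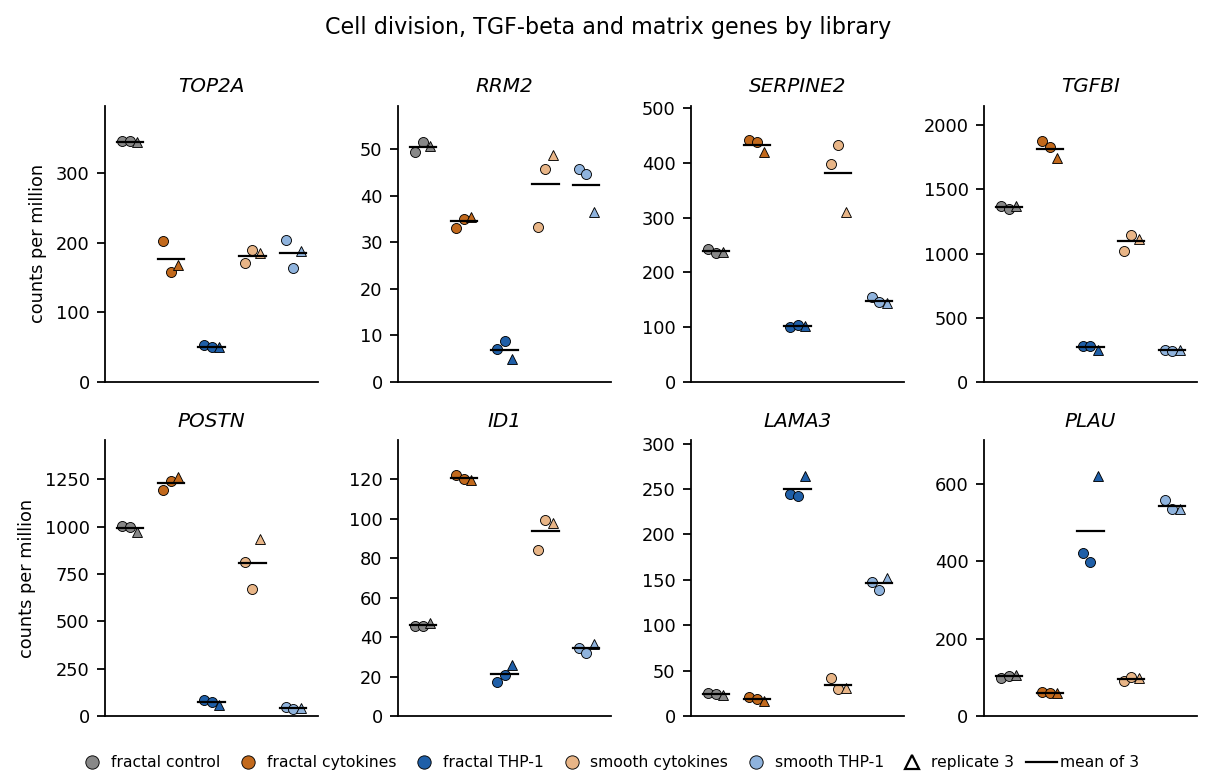
Levels in CPM of 8 genes of cell division, TGF-β response and matrix in each library of 5 groups, with replicate 3 as a triangle and a line at the mean of 3. TOP2A, RRM2, SERPINE2, TGFBI, POSTN and ID1 are lower in the 3 fractal THP-1 libraries than in the 3 fractal cytokine libraries, and LAMA3 and PLAU are higher.

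The stress response to unfolded protein and scarce amino acids was lower with macrophages. Of its 35 genes, 24 were lower and 0 higher (28 and 1 without replicate 3), with a median of -0.62. SLC7A5, the carrier LAT1 that imports leucine, was at 86.0, 82.2 and 74.3 CPM with macrophages and 1162, 893 and 903 CPM with cytokines, 12.2-fold lower by the means (-3.61 ± 0.17, edgeR adjusted p = 6.5e-12). SLC7A11, the cystine importer, was at 22.9, 27.4 and 34.3 CPM against 227, 153 and 194 CPM (-2.77 ± 0.20). SHMT2, which makes one-carbon units from serine in mitochondria, was at 65.7, 66.3 and 49.6 against 198, 151 and 170.5 CPM (-1.51 ± 0.12). Controls were near the cytokine libraries for SLC7A11 (186, 194 and 205 CPM) and SHMT2 (189.7, 186 and 193 CPM).

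Immediate early genes were mostly lower, 16 of 28 tested, with 6 higher (15 and 5 without replicate 3) and a median of -0.56. FOS, a subunit of the transcription factor AP-1, was at 6.87, 8.93 and 6.74 CPM with macrophages, 83.6, 75.9 and 83.5 CPM with cytokines and 11.5, 9.06 and 9.84 CPM in controls. The cytokine libraries were higher than control (3.00 ± 0.23, edgeR adjusted p = 1.7e-08) and the macrophage libraries were not (-0.42 ± 0.25). Its relative FOSB was at 6.34, 6.68 and 6.49 CPM with macrophages, 50.3, 38.0 and 50.6 CPM with cytokines and 6.48, 4.98 and 5.53 CPM in controls. KLF4, a transcription factor, was at 2.11, 2.6 and 4.3 against 23.0, 17.0 and 19.2 CPM (-2.75 ± 0.23), and AREG, a ligand of the EGF receptor, at 8.8, 10.9 and 10.8 against 168, 164 and 168 CPM (-4.04 ± 0.18). FOSL2, DUSP5 and BTG2 were the higher members with the smallest adjusted p; FOSL2 was higher by 0.60 ± 0.08 and DUSP5, a phosphatase of ERK kinases, by 1.33 ± 0.10.

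Glucocorticoid receptor targets were lower in 10 and higher in 3 of 17 tested (10 and 2 without replicate 3), with a median of -0.68. FKBP5, a chaperone induced by the receptor, was at 84.4, 87.9 and 82.9 CPM with macrophages and 251, 254 and 259 CPM with cytokines (-1.58 ± 0.07, edgeR adjusted p = 7.4e-15). SGK1, a kinase of salt transport, was at 4.28, 5.02 and 6.15 against 31.3, 26.8 and 36.8 CPM (-2.63 ± 0.16). For SGK1 the controls were at 32.2, 33.3 and 31.3 CPM, within the range of the cytokine libraries. The 3 higher members were FOXO1, FOXO3 and GLUL, each by under 0.5, and GLUL lost its call without replicate 3. Metallothioneins, metal-binding proteins that the same receptor can induce, were lower in 3 of 6 tested (MT1E, MT1X and MT2A) and higher in 0, also without replicate 3. MT2A was at 381, 493 and 693 against 906, 808 and 795 CPM, and reads of these close relatives can be shared.

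Prostaglandin genes changed in composition. Of 14 tested, 4 were higher and 7 lower (4 and 8 without replicate 3), with a median of -0.64. PTGS1, the constitutive cyclooxygenase 1, was at 3.87, 4.67 and 2.53 CPM with macrophages and 0.0665, 0.491 and 0.445 CPM with cytokines (3.43 ± 0.53, edgeR adjusted p = 1.4e-05), opposite to PTGS2. PTGDS, a prostaglandin D synthase, was at 3.7, 2.66 and 4.64 against 0.133, 0.369 and 0.445 CPM (3.49 ± 0.78). PLA2G4A, the phospholipase that frees arachidonic acid, was lower (-1.59 ± 0.14), as was the prostaglandin F receptor PTGFR, at 10.5, 8.16 and 10.3 against 22.6, 23.9 and 24.1 CPM (-1.29 ± 0.18). PTGIR, the prostacyclin receptor, had no count with cytokines and stayed under 1 CPM with macrophages, and PTGER4, a prostaglandin E receptor, was the fourth higher member.

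Hypoxia and glycolysis genes were lower in 18 and higher in 5 of 33 tested (20 and 4 without replicate 3), with a median of -0.26. The glycolytic enzymes ENO1 and LDHA were lower (-0.69 ± 0.07 and -0.74 ± 0.07), at 1447, 1409 and 1361 against 2209, 2429 and 2390.5 CPM for LDHA. The higher members included VEGFA, NDRG1 and ADM. VEGFA, the angiogenic factor that podocytes supply to the glomerulus, was at 868, 868 and 922 CPM with macrophages and 455, 492 and 428 CPM with cytokines (0.95 ± 0.12, edgeR adjusted p = 1.6e-06). NDRG1, a hypoxia-induced gene, was at 308, 288 and 279 against 117, 132 and 113 CPM (1.27 ± 0.10), and ADM, the vasodilator adrenomedullin, was higher by 1.05 ± 0.14, as were the glycolytic genes ENO2 and PFKL by under 0.5. ANGPTL4, an inhibitor of lipoprotein lipase, was lower, at 141, 136 and 175 against 564, 604 and 486 CPM (-1.88 ± 0.10), and both groups were above control (61.9, 64.6 and 60.4 CPM).

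Ribosomal protein genes were lower in most members. Of 76, 48 were lower and 0 higher (68 and 0 without replicate 3, 28 and 0 in the fit to 6 libraries), with a median of -0.38 under TMM scaling and -0.35 and -0.32 under RLE and upper-quartile scaling. RPSA, a protein of the small subunit, was at 436, 404 and 509.5 CPM with macrophages and 864, 898 and 838 CPM with cytokines (-0.95 ± 0.08). RPLP0, of the large subunit, was at 920.2, 878 and 849 against 1402, 1500.2 and 1397 CPM (-0.70 ± 0.07). Nuclear genes of oxidative phosphorylation were lower in 18 of 49 and higher in 0 (26 and 0 without replicate 3, 5 and 0 in the fit to 6 libraries), with a median of -0.19. In the fit to 6 libraries the 5 were no larger a share than the 11.2% of all genes that were lower. The 13 mitochondrially encoded genes had a median of -0.53 with replicate 3 and -0.06 without it, and 0 of them passed in either fit. Replicate 3 was also the library poorest in these transcripts.

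Lysosome and autophagy genes were higher in 13 and lower in 6 of 37 (12 and 7 without replicate 3), with a median of 0.06. CTSB, a lysosomal protease, was at 1759, 1703 and 1453 CPM with macrophages and 1002, 1029.6 and 991 CPM with cytokines (0.70 ± 0.08), and NPC1, which exports cholesterol from lysosomes, was higher by 0.90 ± 0.08. Cholesterol and fatty acid genes were called about as often as all genes (35.9%; 15.4% higher, 20.5% lower). Of 33 tested, 9 were higher and 3 lower (10 and 7 without replicate 3), with a median of 0.16. TM7SF2, a sterol reductase, was at 13.6, 14.0 and 15.8 against 3.59, 4.48 and 4.33 CPM (1.80 ± 0.18), SREBF2, a transcription factor that switches the pathway on, was higher by 0.81 ± 0.09, and ACLY, which supplies acetyl-CoA, was lower (-0.43 ± 0.07), as were SC5D and SQLE. The call of SQLE was lost under RLE and upper-quartile scaling, among other settings. NRF2 targets were lower in 9 and higher in 2 of 27 tested (12 and 2 without replicate 3). NQO1, a quinone reductase, was at 75.2, 68.5 and 72.1 against 171, 146 and 163 CPM (-1.15 ± 0.08). The 2 higher members were GPX4, which removes lipid peroxides (0.53 ± 0.09), and SQSTM1, an autophagy receptor also on the lysosome list. SQSTM1 rested on replicate 3: it was at 197, 191 and 353 against 175, 184 and 168 CPM, and its call (0.49 ± 0.15) was lost without that library (0.14, edgeR adjusted p = 0.098).

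Heat shock genes were divided, 5 higher and 5 lower of 17 (3 and 7 without replicate 3), with a median of 0 under TMM scaling and of -0.14 without replicate 3. The small heat shock protein CRYAB was at 10.1, 8.75 and 7.92 against 3.59, 2.27 and 3.88 CPM (1.46 ± 0.22), and HSPB8, another, was higher by 0.82 ± 0.13. HSPA1A, DNAJA1 and HSPH1 were higher by less. The mitochondrial chaperone HSPA9 was lower (-0.73 ± 0.08), as were HSPA8, HSP90AB1, HSPD1 and DNAJB4. HSPA1A can share reads with its near-identical copy HSPA1B.

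Podocyte and adhesion genes changed in both directions. Of 29 podocyte genes tested, 7 were higher and 13 lower (7 and 12 without replicate 3, 4 and 9 in the fit to 6 libraries, 9 and 10 under upper-quartile scaling), with a median of -0.13. KIRREL1, a slit diaphragm relative of nephrin, was at 443, 434 and 417 CPM with macrophages and 308, 296 and 292 CPM with cytokines (0.53 ± 0.08, edgeR adjusted p = 1.8e-05). FOXC2, a transcription factor of podocyte development, was at 30.2, 29 and 34.1 against 78.5, 75.0 and 69.1 CPM (-1.26 ± 0.10), and VIM, the intermediate filament vimentin, at 754, 782 and 653 against 1418, 1409 and 1411 CPM (-0.95 ± 0.08). ANLN, a podocyte disease gene, is also an actin-binding protein of dividing cells, and was lower like the mitotic genes (-1.61 ± 0.09).

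Among 28 integrin and focal adhesion genes tested, 7 were higher and 12 lower (8 and 12 without replicate 3, 9 and 11 under upper-quartile scaling). The list's median, -0.05, turned to 0.01 under upper-quartile scaling. ITGA5, the fibronectin receptor chain, was at 520.5, 494 and 451 CPM with macrophages and 1180.5, 1154 and 1074 CPM with cytokines (-1.22 ± 0.07), while FN1 itself was higher. ITGA4, a chain that binds VCAM1 and fibronectin, was at 20.6, 14.7 and 14.4 against 68.2, 60.4 and 59.0 CPM (-1.91 ± 0.12), and ITGA6, a laminin-binding chain, at 9.57, 8.63 and 12.7 against 40.1, 35.5 and 38.4 CPM (-1.90 ± 0.15). ITGB8, which activates latent TGF-β, was higher, at 361, 399 and 257 against 108, 132 and 149 CPM (1.39 ± 0.12). Targets of the mechanosensitive factors YAP and TAZ were lower in 12 and higher in 3 of 22 tested (13 and 4 without replicate 3), with a median of -0.38. ANKRD1, a commonly used YAP target, was at 1.88, 2.54 and 1.1 CPM against 49.0, 35.4 and 40.2 CPM and 74.4, 71.0 and 71.1 CPM in controls (-4.44 ± 0.21, edgeR adjusted p = 1.6e-13). The 3 higher members were MYOF, F3 and NUAK2 (0.71 ± 0.08, 0.69 ± 0.11 and 1.01 ± 0.18).

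The largest single fold changes included genes outside the lists. KIT, the receptor for stem cell factor, was at 17.2, 17.6 and 13.3 CPM with macrophages and 0.0665, 0.369 and 0.509 CPM with cytokines (5.62 ± 0.45, edgeR adjusted p = 7.9e-10). CYP1A1, the enzyme induced by the aryl hydrocarbon receptor, was at 6.98, 5.08 and 6.07 CPM against 0.133, 0 and 0 CPM. IQCD was at 122, 139 and 133 CPM against 4.06, 6.21 and 6.11 CPM (24.1-fold by the means), and TMPRSS2, a membrane protease, at 20.5, 20.3 and 14.6 against 0.333, 0.553 and 1.15 CPM (27.3-fold). DCDC2, a microtubule-binding protein of primary cilia, was at 61.9, 63.5 and 83.9 against 1.06, 2.95 and 1.21 CPM, and OLFML2B, a secreted matrix protein, at 67.1, 73.9 and 46.0 against 2.00, 2.15 and 1.21 CPM. MAP1LC3C and KLRG2 had no count with cytokines and were at least 104-fold and at least 88.7-fold higher. IQCD and CHRD overlap a gene on the other strand, with which these libraries could share reads.

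On the lower side, STRA6, a receptor for retinol-binding protein, was at 0.117, 0.414 and 0.253 CPM with macrophages and 9.98, 13.6 and 8.91 CPM with cytokines (41.4-fold lower by the means), and controls were at 0.861, 1.13 and 0.815 CPM. DKK1, a secreted Wnt inhibitor, was at 1.23, 1.54 and 0.421 CPM against 32.4, 36.5 and 35.7 CPM (-4.94 ± 0.30, edgeR adjusted p = 2.7e-10). CPA4, a carboxypeptidase, was at 1.29, 1.83 and 3.03 against 55.4, 34.7 and 39.5 CPM (-4.45 ± 0.24), and PAPPA2, a protease of IGF-binding proteins, at 0.176, 0.118 and 0.0843 against 7.05, 4.42 and 4.33 CPM (-5.26 ± 0.60). MEST, an imprinted gene, was at 2.93, 3.78 and 1.01 against 35.0, 34.8 and 30.6 CPM (-3.63 ± 0.31). Such genes were ranked only if the macrophage and cytokine libraries did not overlap, so their separation follows from that choice.

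Part of these differences depended on the surface. On the smooth surface the same comparison of THP-1 with cytokines called 3620 genes (22.4%; 10.6% higher, 11.8% lower). Of the genes called on the fractal surface, 2257 were called in the same direction on the smooth one (38.9% of the fractal and 62.3% of the smooth calls) and 185 in the opposite direction. The difference between the surfaces itself passed the interaction test in 1847 genes (11.5%; 813 higher on fractal, 1034 lower), and in 2759 of 16661 without fractal THP-1 replicate 3 (16.6%; 6.77% higher, 9.79% lower). Of the 1847, 643 had the same sign on both surfaces with the larger change on fractal, 201 had the larger change on smooth and 1003 had opposite signs. These are signs of fitted values, and only 185 of the 1003 were called on both surfaces. Smooth cytokines replicate 2, which enters only the smooth arm, also stood apart, with 8.09% of its counts on mitochondrially encoded genes; without it and fractal THP-1 replicate 3 the interaction was called in 3205 genes.

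Cell division showed the surface dependence most fully. The interaction was lower in 51 of 52 mitotic and 32 of 44 replication genes, and higher in 0 (51 and 37 lower without replicate 3; 6.41% of all genes lower, 5.04% higher). On smooth, 6 of the 52 mitotic and 6 of the 44 replication genes were higher with THP-1, near the 10.6% of all genes. On that surface 0 of either list were lower, against 11.8% of all genes. TOP2A was at 205, 164 and 188 CPM in smooth THP-1 and 171, 189 and 185 CPM in smooth cytokines, which overlapped (0.03 ± 0.09), so that the interaction was -1.82 ± 0.13 (edgeR adjusted p = 2.4e-10). For CENPM and SKA3, both parts of the kinetochore machinery and 2 of the 5 largest negative interactions, the values were -2.65 ± 0.43 and -2.58 ± 0.32.

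NF-kB targets and chemokines changed sides. On smooth, 19 NF-kB targets were lower with THP-1 than with cytokines and 4 higher, and the interaction was higher in 26 and lower in 1 (27 and 1 without fractal THP-1 replicate 3). Among chemokines 12 were lower and 6 higher on smooth, with an interaction higher in 12 and lower in 0, with and without that library. Genes on both lists, such as CXCL6 and IL6, count in each. CXCL6 was at 119, 119 and 113 CPM in smooth THP-1 and 1058, 861 and 1269.5 CPM in smooth cytokines, the reverse of the order on fractal (-3.18 ± 0.14 on smooth, interaction 5.34 ± 0.19, edgeR adjusted p = 9.9e-15). C3 was at 466, 418 and 433 against 2099, 1293 and 2172 CPM on smooth (-2.08 ± 0.13, interaction 3.11 ± 0.17), and SAA1 likewise (-2.86 ± 0.23, interaction 4.39 ± 0.32). IL6 was at 116, 121 and 122 against 155, 156 and 183 CPM (-0.46 ± 0.09, interaction 1.81 ± 0.12). In the type I interferon list, 18 of 34 were higher and 1 lower on smooth, with an interaction called in 2 higher and 1 lower (3 and 1 without replicate 3).

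Other groups were alike in direction on both surfaces. TGF-β targets were lower in 22 and higher in 2 on smooth, although the interaction was lower in 13 and higher in 2 (14 and 4 without replicate 3). Ribosomal protein genes were lower in 48 on smooth as on fractal, with an interaction called in 1 lower (2 higher and 2 lower without replicate 3). POSTN, FGB, AREG and FOS had fold changes on smooth of -4.23 ± 0.13, -7.86 ± 0.67, -4.77 ± 0.20 and -3.25 ± 0.26, and interactions that did not pass. LAMA3 was higher on both and more so on fractal (interaction 1.66 ± 0.15). PLAU was higher on both, and its interaction (0.48 ± 0.15, edgeR adjusted p = 0.045) rested on fractal THP-1 replicate 3, without which it was 0.25 (adjusted p = 0.054). IQCD and TMPRSS2 did not pass on smooth (0.13 ± 0.11 and -0.40 ± 0.28) and had interactions of 4.45 ± 0.17 and 5.15 ± 0.45. In the other direction, SPP1, the secreted phosphoprotein osteopontin, and CHI3L1, a chitinase-like protein, had the larger fold on smooth (interactions -1.97 ± 0.23 and -2.96 ± 0.81, the latter not called without replicate 3). The sum of 61 macrophage markers, which includes both genes, was also higher in smooth THP-1 than in fractal THP-1.

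**Figure D5:**
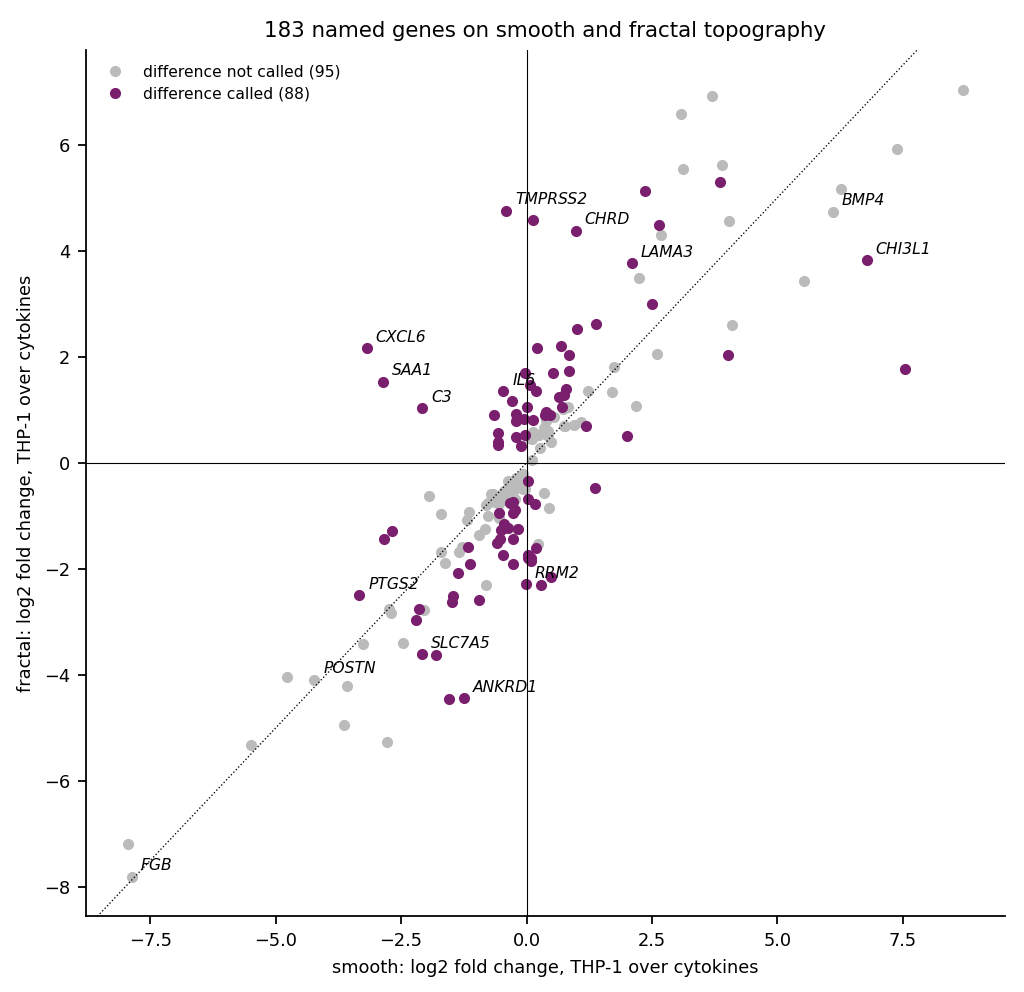
Log2 fold change of THP-1 over cytokines on the smooth surface (horizontal) and on the fractal surface (vertical) for 183 of the genes chosen for naming, with 88 whose difference between surfaces passed in purple and 95 in grey; the dotted line marks equal change. CXCL6, SAA1 and C3 lie in the upper left, higher with THP-1 on fractal and lower on smooth, while POSTN and FGB lie near the line.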

How the data were processed

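RNA of 18 libraries, 6 groups of 3, had been extracted with the PicoPure kit, selected by poly-T and sequenced without strand information, per the labels. The deposited table holds raw whole-number counts for 58735 genes, not normalized; its totals run from 11488204 to 21264180. Per the submitters' processing notes, CASAVA, HISAT2 2.0.5, featureCounts 1.5.0-p3 and GRCh38 were used; the annotation release is not given in the sources used here. GENCODE 29, which held every gene ID, gave positions and types.

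In R 4.3.3, edgeR 4.0.16 kept 16129 genes (filterByExpr, minimum count 10, minimum total 15) and fitted 1 mean per group to all 18 libraries (TMM, 12 residual degrees of freedom, common biological coefficient of variation 12.2%). Contrasts were tested by the quasi-likelihood F-test, with p-values adjusted over all genes, and the standard error is the absolute log2 fold change over the square root of F. A group with no count was set to 3 counts for a bound. Marker sums use CPM of unscaled totals. Alternatives used limma 3.58.1, DESeq2 1.42.0, other scalings, filters and sets of libraries. On simulated counts 15317 genes were tested, with 50 changed at each fold, and 10 unchanged genes were called. The test recovered 60% of genes changed 1.5-fold, 70% at 2-fold, 96% at 4-fold and 72% at 0.5-fold. The simulation had far fewer changed genes than the data and no library that stood apart, so these rates may not hold for the data.

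Members and gene lists were chosen with earlier results of these data known. Named genes were the 15 largest changes in each direction among protein-coding genes (at least 5 CPM in the higher group, no overlap), up to 3 members of each list in each direction by adjusted p, 12 preset genes, the 5 largest interactions in each direction, and defining and most abundant markers. Genes outside this rule, named after their values were seen, are APOE, ARHGDIB, CD24, CD68, CDH5, CFB, CLDN1, CLDN16, CLU, COL3A1, COL4A6, CXCL2, CXCL5, DNAJA1, DNAJB4, EGFL7, ENO2, HSPA1B, HSPD1, HSPH1, KDR, KRT7, KRT8, KRT18, KRT19, LAMC1, LYZ, MMP13, PAX8, PFKL, PLVAP, PTGER4 and SAA2. Some genes of the rule are not reported here. Of 198 genes the rule chose, 81 overlap a gene on the other strand, and their reads cannot be told apart.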

Additional observations from a re-analysis of the deposited data

Results flagged for a closer look

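All values here are differences between the surfaces, that is the log2 fold change of THP-1 over cytokines on fractal less that on smooth, and each passed edgeR's interaction test at an adjusted p of 0.05. In all, 1847 genes passed. Without fractal THP-1 replicate 3, 81 of the 86 genes named here still passed and CD14, CHI3L1, PLAU, SESN2 and VEGFA did not; PLAU was then at 0.25. A positive value means that THP-1 lay higher against cytokines on fractal than it did on smooth.

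Inflammatory genes had positive differences. Among chemokines and cytokines the value was 5.34 for CXCL6, 1.95 for CCL2, 1.81 for IL6, 1.55 for CXCL8, 1.42 for CXCL3 and 1.23 for IL1B. The acute phase and complement genes SAA1 and C3 differed by 4.39 and 3.11. Adhesion molecules and enzymes of the same response followed, with 1.17 for ICAM1, 0.95 for VCAM1, 0.83 for the prostaglandin synthase gene PTGS2 and 1.40 for the prostaglandin receptor gene PTGFR. In interferon and antigen presentation genes the value was 1.19 for SOCS1, 1.16 for IFIH1 and 0.59 for HLA-B.

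Genes of cell division had negative differences. They came to -1.82 for TOP2A, -1.80 for ANLN, -1.75 for ASPM, -1.94 for TPX2, -2.65 for CENPM and -2.58 for SKA3 among mitotic genes. In replication and nucleotide supply the value was -2.28 for RRM2, -1.87 for TK1 and -1.10 for MCM6. Of the p53 targets, CDKN1A differed by -0.48 and RRM2B by 0.35.

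Matrix and adhesion genes were divided. The laminin chains LAMA3 and LAMB3 had 1.66 and 1.14, the protease genes ADAMTS5 and PLAU 1.72 and 0.48, the integrin gene ITGB8 0.61 and the matrix gene OLFML2B 2.76. Negative values were found for COL6A3 (-1.64), MFAP5 (-1.49), TGFBI (-0.61), NID1 (-0.44), ADAMTS1 (-0.66), SERPINE2 (-0.72) and the structural protein gene VIM (-0.68). Integrin chain genes ITGA4, ITGA5 and ITGA6 had -1.63, -0.85 and -0.77, while the focal adhesion gene LIMS1 had 0.55. The YAP target ANKRD1 had -3.20 and the adhesion gene DLC1 -1.27.

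Among BMP and developmental genes, the antagonists CHRD and NOG had 3.40 and 1.84, the BMP target ID1 -1.05, and the podocyte genes PODXL and FOXC2 -1.17 and -0.75. Macrophage and endothelial markers differed in both directions, by 1.52 for CD14, 1.53 for PECAM1, -1.97 for SPP1, -2.96 for CHI3L1, -1.85 for CORO1A and -5.77 for PTPRC. Of genes ranked for their single change, KLRG2, TMPRSS2 and IQCD had 5.95, 5.15 and 4.45, DCDC2 1.44, CPA4 -2.91 and MEST -1.81. KLRG2 and PTPRC have libraries with no count, so that their fitted values depend on the prior count.

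Stress and metabolic genes differed in both directions. The amino acid response genes SLC7A5, SHMT2 and SESN2 had -1.52, -0.92 and -0.92, and the heat shock genes HSPA8, HSPA9, HSPB8 and CRYAB -0.38, -0.46, 0.87 and 1.39. In oxidative stress genes the value was -0.70 for NQO1, 0.69 for SQSTM1 (0.34 without fractal THP-1 replicate 3) and 0.56 for GPX4. The hypoxia targets ADM, VEGFA, NDRG1 and ENO1 had 1.03, 0.57, 0.53 and -0.71. Sterol genes SREBF2, NPC1 and INSIG1 had 0.69, 0.44 and 0.98, the autophagy gene GABARAPL1 1.13, and FOXO1 and FOXO3, transcription factors of stress resistance, 0.91 and 0.42. Glucocorticoid-inducible SGK1 and FKBP5 had -1.16 and -0.42, the ribosomal protein gene RPSA -0.39 and the respiratory chain gene COX8A -0.93.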

How the results depend on the processing

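The fractal comparison called 5795 genes, and between 5476 and 6655 under the other scalings, tests and filters tried. It called 3316 when the spread came from its 6 libraries alone, 1754 when a change of 1 or more on the log2 scale was also asked for, and 4700 to 6146 when 1 library was left out. The smooth comparison (3620 genes) gave 1076 with that fold threshold and 2757 to 3125 with 1 library left out. The interaction (1847 genes) gave 1172 from the 12 libraries of its groups, 2833 in limma-voom with library quality weights, 705 with the fold threshold, 3205 when fractal THP-1 replicate 3 and smooth cytokines replicate 2 were both left out, and 1373 to 2759 with 1 library left out. The sum of macrophage markers differed by -188.8 CPM, by -233.5 to -110.7 CPM with 1 library left out (the latter without fractal THP-1 replicate 3), and by 182.8 CPM without SRGN, CD44 and APOE. Libraries of the same replicate number did not deviate together from their group means on fractal (r = -0.02, -0.08 and -0.11). Fractal THP-1 replicate 3 weighs heavily on these deviations, so the check cannot exclude that the numbers pair libraries. With a replicate block 5711, 3518 and 1787 genes were called in the 3 tests. The block ended the calls of EPSTI1, SQLE and TIE1 and no other named call. Over all genes, 3304 of the 5795 calls were also made in the fit to 6 libraries. Most named genes were chosen for large changes or small adjusted p in these same data, which favours their calls in other fits. Of the 173 named genes called on fractal, 160 were called in every alternative fit, and 0 of the 173 changed sign in any of them. The others were lost in at least 1 fit: EPSTI1, GLUL, SQSTM1 and TIE1 without fractal THP-1 replicate 3, and ATG9A, HSP90AB1, HSPA8, IFIT5, MAP1LC3B, MFAP5, SC5D, SQLE and TRIAP1 under other settings; the cause was not tested. Depth limits the weak markers: with 11488204 counts in the shallowest library, transcripts near 0.1 CPM rest on about 1 count.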

Other observations

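Several of the larger changes belonged to genes of other roles. CHRNA1, a subunit of the muscle acetylcholine receptor, was at 8.86, 10.2 and 8.77 CPM in fractal THP-1 and 0, 0.369 and 0.191 CPM in fractal cytokines, and a gene on the other strand overlaps it. SLC47A1, a renal exporter of organic cations, was higher by 4.56 ± 0.43 on the log2 scale, at 12.2, 12.7 and 11.8 against 0.732, 0.43 and 0.382 CPM. HOOK1, which links cargo to microtubules, was at 6.46, 6.5 and 3.62 against 0.133, 0.246 and 0.445 CPM (4.29 ± 0.57). In the other direction, AKR1C2, an aldo-keto reductase with close paralogs that could share its reads, was at 0.469, 1.12 and 1.35 CPM with macrophages and 8.85, 13.0 and 8.59 CPM with cytokines (-3.40 ± 0.33), and CCDC190 at 0.587, 0.177 and 0 against 5.39, 6.45 and 4.07 CPM (-4.21 ± 0.44). These 5 genes were ranked among those without overlap between the groups, so their separation follows from that choice.

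Adhesion and signalling genes moved in both directions. The integrin chain gene ITGA7 (2.05 ± 0.28), LIMS1, which encodes the focal adhesion protein PINCH1 (0.91 ± 0.08), and TNS3, a tensin listed among podocyte genes (0.53 ± 0.09), were higher with macrophages in edgeR's test. DLC1, a GTPase-activating protein of focal adhesions, was at 76.8, 79.4 and 67.1 against 275, 221 and 250.1 CPM and lower (-1.74 ± 0.10). The secreted cytokines IL11 (-0.97 ± 0.18) and IL15 (-0.78 ± 0.16) and DUSP1, a phosphatase that switches off MAP kinases (-0.92 ± 0.07), were also lower. INSIG1, which holds back cholesterol synthesis, was higher (0.78 ± 0.14), as was the autophagy gene GABARAPL1 (0.57 ± 0.08). Other genes of the same list, LIPA, the lysosomal lipase (-0.62 ± 0.12), ATG9A (-0.48 ± 0.12) and MAP1LC3B (-0.34 ± 0.09), were lower. Respiratory chain genes of the nucleus were lower too: the values were -0.50 ± 0.07 for ATP5F1B and -0.60 ± 0.08 for ATP5PB, both of ATP synthase, and -0.77 ± 0.11 for COX8A.

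Within fractal THP-1, replicate 3 departed from its companions most in a few transcripts, chosen here after their values were seen. ROMO1, a small mitochondrial membrane protein gene, was at 72.3 CPM in replicate 3, against 17.3 and 18.8 CPM in replicates 1 and 2 and 22.0 to 27.7 CPM in fractal cytokines. MT-ATP6, on the mitochondrial genome, was at 145.2 CPM against 2049 and 2141 CPM, and ATP5PF, a nuclear gene of ATP synthase, at 3.54 CPM against 27.5 and 28.6 CPM.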
